A study of Mus musculus with 8 samples.

Results

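The cells described here were T cells of mouse skin that carried the transcripts of an αβ T cell receptor and few or none of those that mark the Ctla4 and Icos positive T cells, among which regulatory T cells are counted. They were chosen by transcripts. A barcode counted when it had between 500 and 4000 genes, at most 20000 UMIs (unique molecular identifiers, each of which stands for one captured RNA molecule) and at most 10% mitochondrial UMIs, at least 2 of Cd3e, Cd3d, Cd3g, Trbc1 and Trbc2, and Trac. It could have at most 1 of Ctla4, Icos, Tnfrsf4, Foxp3, Ikzf2 and Tigit, and neither Trdc nor Tcrg-C1, the constant regions of the γδ receptor. By that rule, 353 of 11118 cells that passed the quality filter were other αβ T cells, 216 of them from PBMCsec libraries and 137 from vehicle libraries.

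Single-cell RNA sequencing of dorsal skin was carried out on 8 female BALB/c mice aged 14 to 16 weeks, 1 library per mouse, 4 treated with PBMCsec and 4 with vehicle. PBMCsec is the secretome of γ-irradiated peripheral blood mononuclear cells, that is, the medium into which these cells had released their products. The study that used these data cut full-thickness wounds into the back, let them scar, then injected PBMCsec or a control solution into the scars repeatedly, and sampled mice directly after treatment or after a further interval without treatment. The sample labels used here give the treatment and a number, and neither the control solution nor the time of sampling, so the 4 libraries of each group may hold both times, and a difference between times cannot be told apart from spread within a group. The series itself has the title of a work on mast cells and basophils, and it describes an injection under dorsal skin and mentions neither wound nor scar. Whether the skin was scar tissue, and into which layer PBMCsec was injected, therefore cannot be told from the labels, and treatment below means injection with PBMCsec or vehicle only.

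T cells recognise antigen with a receptor made of an α and a β chain, or of a γ and a δ chain, and pass the signal on through the CD3 proteins. Among αβ T cells, those with the CD4 coreceptor read peptides on MHC class II and mostly help other cells through cytokines, and those with CD8 read peptides on MHC class I and can kill with granzymes and perforin. Skin holds T cells of both kinds that stay in the tissue, besides others that pass through, and in the mouse it also holds many γδ T cells. In a single cell, a coreceptor transcript is often missed, so a cell without a Cd4 or Cd8 UMI was not taken to lack the protein.

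The libraries held between 14753926 and 37880651 UMIs in all. The members had a median of 3205 UMIs and 1386 genes per cell, and their summed UMIs per library, on which every level below rests, were 239278, 217127, 236254 and 142111 in PBMCsec libraries 1 to 4 and 227305, 86574, 104556 and 116067 in vehicle libraries 1 to 4. Vehicle library 2 was the thinnest, with 19 members, whereas PBMCsec library 3 had 76. Among all 26231 barcodes, 78 barcode sequences occurred in more than 1 library, and 3 of the members had such a barcode. By a count of transcripts of other cell types, 10 of the 216 and 5 of the 137 members were possible doublets.

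The label was checked on genes that the rule had not used. Lck, the kinase that starts signalling from the T cell receptor, had a UMI in 73.1% of members, against 0.592% of 4394 keratinocyte-type cells, which served as a background for free RNA and had a median of 9467.5 UMIs. Ms4a4b, a membrane protein of T cells, was found in 71.7% of members and in 0.0683% of the keratinocyte-type cells, and its relative Ms4a6b in 70.8% and 0.364%. Thus the 3 label markers outside the rule were far above the free-RNA background in cells of lower depth. This check tells T cells from free RNA and not the members from other T cells. Lck, Ms4a6b and Ms4a4b were found in 74.8%, 65.4% and 34.25% of the Ctla4 and Icos positive T cells. In γδ T cells they were found in 25.9%, 29.7% and 7.26%. Of the rule's own genes, Trac was in 100% of members by construction, Cd3e in 83.9%, Trbc2 in 83.9% and Trbc1 in 52.7%; Trbc2 was also found in 29.4% of the keratinocyte-type cells, so that it marked T cells less cleanly than Cd3e (0.501%) or Trac (0.228%). Variable segments, which 3′ libraries rarely reach, gave a Trbv UMI in 42 members and a Trav UMI in 52, of which 9 had Trav14d-3-dv8.

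Some limits of the choice were visible. The Tcrg-C2 and Tcrg-C4 constant regions were not part of the rule, and 27 and 11 members had a UMI of them. Just inside the thresholds, 30 members had exactly 2 of the 5 CD3 and β-chain genes, and 15 cells with 1 lay just outside. A single activation gene was present in 172 members and none in 181, while 111 cells with 2 lay just outside. A further 260 cells met all conditions except a Trac UMI, 55 all except the absence of Trdc, and 11 all except the absence of Tcrg-C1. Icos, the inducible costimulator, was the activation gene most often allowed in, with a UMI in 30.9% of members, and Foxp3, the regulator of regulatory T cells, was found in 2 members (0.567%).

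Promoters of 3 genes are shown because the data below turn on them: Nkg7, which was higher in the Cd8 than in the Cd4 cells, Gata3, which went the other way, and Ms4a4b, which marked the members against both other T cell sets. Each is the stretch from 250 to 66 bases before the RefSeq start of the gene, on the gene's strand, in build GRCm38.p6, 5′ to 3′. Capitals mark the RUNX core, TGTGGT or its opposite-strand form ACCACA, and the T-box core, TCACAC or GTGTGA, was searched for as well. The Nkg7 stretch lies at chr7:43436888-43437072 on the plus strand. The Gata3 stretch lies at chr2:9878666-9878850 on the minus strand, within an intron of longer Gata3 transcripts and an exon of the antisense gene Gm13256 by GENCODE M21. The Ms4a4b stretch lies at chr19:11443308-11443492 on the plus strand.
Nkg7: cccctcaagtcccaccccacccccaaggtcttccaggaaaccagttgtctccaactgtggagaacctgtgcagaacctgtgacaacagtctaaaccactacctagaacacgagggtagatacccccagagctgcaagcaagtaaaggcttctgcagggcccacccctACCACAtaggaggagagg
Gata3: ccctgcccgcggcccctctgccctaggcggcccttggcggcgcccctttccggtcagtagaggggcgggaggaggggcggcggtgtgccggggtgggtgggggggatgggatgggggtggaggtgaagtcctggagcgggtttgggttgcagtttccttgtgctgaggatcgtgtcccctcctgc
Ms4a4b: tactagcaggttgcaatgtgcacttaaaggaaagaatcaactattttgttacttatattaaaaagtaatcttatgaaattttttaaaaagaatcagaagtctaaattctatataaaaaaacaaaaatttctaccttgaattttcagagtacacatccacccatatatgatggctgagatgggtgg
The Nkg7 stretch held 1 RUNX core, and the other stretches held none of either motif. Of 32851 promoter stretches of the same length, 10.7% held a RUNX core and 9.15% a T-box core. A match of 6 letters is a description of the sequence and not a binding site.

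The members made up a small and uneven part of the cells. They were 4.54%, 8.70%, 3.00% and 2.81% of the passing cells in PBMCsec libraries 1 to 4, and 12.3%, 4.65%, 1.45% and 2.12% in vehicle libraries 1 to 4. Vehicle library 1, with 39 members among 318 passing cells (exact Clopper-Pearson 95% interval 8.87% to 16.4%, counting error only), was highest, and vehicle library 3 was lowest, so that the vehicle group spanned the whole range of the PBMCsec group. The means were 4.76% ± 2.73 and 5.12% ± 4.96 (SD, n = 4 each), a difference of -0.358 percentage points (two-sided exact permutation p = 0.914). As a share of all T cells, which leaves out the other cells of the skin, members made up 39.8% ± 4.09 in PBMCsec and 40.1% ± 15.8 in vehicle libraries (exact permutation p = 0.971). The smallest p that 4 libraries against 4 allow is 0.0286, and all 6 shares compared had an adjusted p of 1. In each group, libraries 1 and 2 had fewer passing cells (318 to 1080) than libraries 3 and 4 (1600 to 2903), and the direction of the difference in the share of passing cells turned between these pairs, to 1.12 percentage points higher in PBMCsec in libraries 3 and 4.

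Cd4 cells were the larger kind. Cd4 without Cd8a or Cd8b1 was present in 157 members, Cd8a or Cd8b1 without Cd4 in 65, both in 7 and neither in 124. The cells with neither had the lowest median depth, 2813.5 UMIs, against 3443 for the Cd4 and 3180 for the Cd8 cells. Cd4 cells took 42.9%, 56.5%, 31.6% and 44.4% of the members in PBMCsec libraries and 46.2%, 73.7%, 40.5% and 45.9% in vehicle libraries. Cd8 cells took 24.5%, 10.9%, 19.7% and 17.8% in PBMCsec libraries and 35.9%, 0%, 14.3% and 13.5% in vehicle libraries. The groups overlapped in both, and the absence of Cd8 cells from vehicle library 2 rests on 0 of 19 cells. The exact Clopper-Pearson 95% interval of that share reaches 17.6%, counting error only. The mean Cd4 share was 43.9% ± 10.2 in PBMCsec and 51.6% ± 14.98 in vehicle libraries (n = 4 each, exact permutation p = 0.486), and the mean Cd8 share was 18.2% ± 5.65 and 15.9% ± 14.8 (p = 0.8 by the same exact test).

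**Figure D1:**
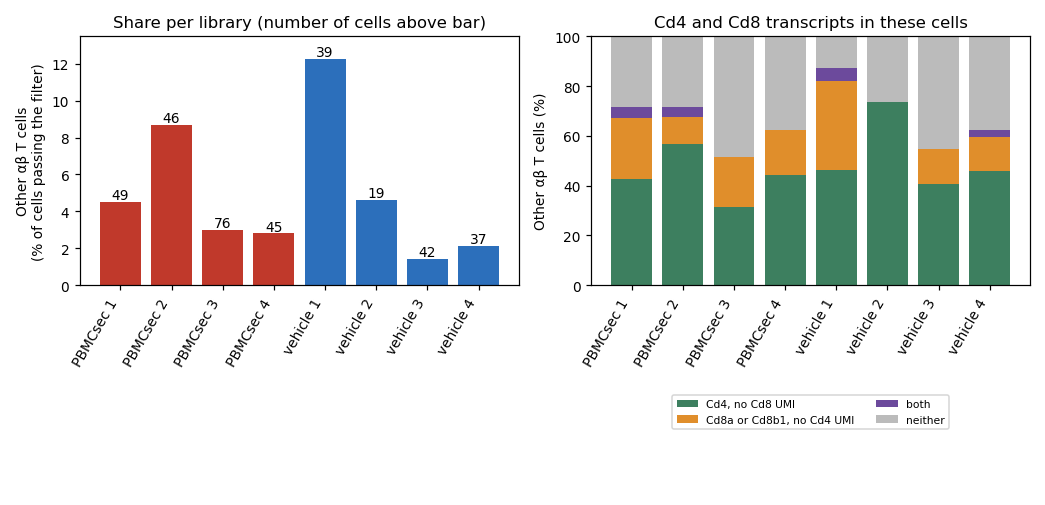
The left panel plots the other αβ T cells of each library as a percentage of the cells that passed the filter, with the number of cells above each bar, and the right panel splits them by the Cd4, Cd8a and Cd8b1 UMIs they held, in percent. Vehicle library 1 has the highest share (12.3%), vehicle library 2 has no Cd8 cells, and the treatment groups overlap in both panels.

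Cd4 and Cd8 cells differed in the genes that each kind is known for. The Cd8 cells had more of the cytotoxic genes Ccl5, a chemokine, Nkg7, a granule protein, and Ctsw, a cathepsin of killer lymphocytes, and the Cd4 cells had more Maf and Gata3, both transcription factors of helper cells. The comparison was made within 7 libraries, since vehicle library 2 had no Cd8 cell, with the library as a block, and it used edgeR's quasi-likelihood test with Benjamini-Hochberg adjustment on 612 genes, of which 8 (1.31%) passed, 3 (0.49%) higher in the Cd4 cells and 5 (0.817%) lower. Levels are CPM, a gene's UMIs over the summed UMIs of the cells of a library, scaled to the usual fixed total and, within each comparison, by edgeR, so that a gene's level can differ slightly from one comparison to the next. They are not set per transcript length, and levels are compared between cells and not between genes.

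Nkg7 had 24.5 CPM in the lowest, 151.5 in the median and 1055 in the highest library of the Cd4 cells, and 811, 1847 and 3465 in the Cd8 cells. Among the libraries compared, the Cd4 cells of PBMCsec library 4, at 1055, reached into the range of the Cd8 cells, and so did the 14 Cd4 cells of vehicle library 2, at 1156 CPM of their own UMIs, which had no Cd8 cells to compare with. The Cd8 cells were higher in 7 of 7 libraries (log2 fold change of Cd4 against Cd8 cells -2.94, SE 0.30, adjusted p = 3.8e-05 by edgeR). It had a UMI in 28.0% of Cd4 and 89.2% of Cd8 cells. Ccl5 had 0 to 419 CPM in the Cd4 cells, median 31.9, and 387 to 9976 in the Cd8 cells, median 6999, a spread of more than an order of magnitude among the Cd8 cells themselves. Vehicle libraries 1 and 4 were the low ones among them, at 585 and 387 CPM, and the log2 fold change was -5.07 (SE 0.65, edgeR adjusted p = 0.00025). It was -6.00 without PBMCsec library 1, and in vehicle libraries alone it was -4.29 and missed the threshold. Ctsw differed in the same direction (114 ± 72.9 against 575 ± 263 CPM, mean ± SD, n = 7, log2 fold change -2.21, edgeR adjusted p = 0.001). The remaining genes higher in Cd8 cells were Ctla2a, which resembles the propeptide of a cathepsin, at a log2 fold change of -1.27, and the transcript AW112010 at -0.91 (edgeR adjusted p = 0.0396 for each). All 3 genes of the cytotoxic list of 15 that had enough UMIs to be tested were among those lower in the Cd4 cells. Others of that list were too sparse for the test: Gzmb, which encodes granzyme B, had a UMI in 27.7% of Cd8 and 0.637% of Cd4 cells, and Klrd1, the lectin receptor CD94, in 53.9% and 7.64%.

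Maf had 255 CPM in the lowest, 368 in the median and 454 in the highest library of the Cd4 cells, and 0, 45.0 and 111 in the Cd8 cells. The sets did not overlap (log2 fold change 2.81, SE 0.33, edgeR adjusted p = 0.000162). Gata3, the regulator of type 2 helper cells, had 188, 357 and 686 CPM in the Cd4 cells and 0, 67.6 and 237 in the Cd8 cells, with overlap between libraries but a higher value in the Cd4 cells of each of the 7 (log2 fold change 2.15, SE 0.31, edgeR adjusted p = 0.000924). Ifi27l2a, an interferon-induced gene, was also higher in the Cd4 cells, by 1.27 on the log2 scale (SE 0.29, edgeR adjusted p = 0.0396). The calls of Ifi27l2a, Ctla2a and AW112010 were the least firm, lost in 9, 7 and 7 of 13 alternative settings. Ms4a4b was at 623 ± 150 CPM in the Cd4 and 1134 ± 412 CPM in the Cd8 cells (n = 7 each) and missed the threshold (log2 fold change -0.79, edgeR adjusted p = 0.0596). Among genes given as shares only, Cd40lg, the helper ligand for B cells and dendritic cells, was found in 38.2% of Cd4, 4.62% of Cd8 and 27.4% of the cells with neither coreceptor, and Itgae, the integrin αE that holds T cells at epithelia, in 13.4%, 47.7% and 27.4%. The cells with neither held Fcer1g, a signalling chain of innate-like lymphocytes, in 16.9%, against 0.637% of Cd4 and 1.54% of Cd8 cells, and Xcl1, a chemokine of killer and innate lymphocytes, in 14.5%, against 0% and 7.69%.

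**Figure D2:**
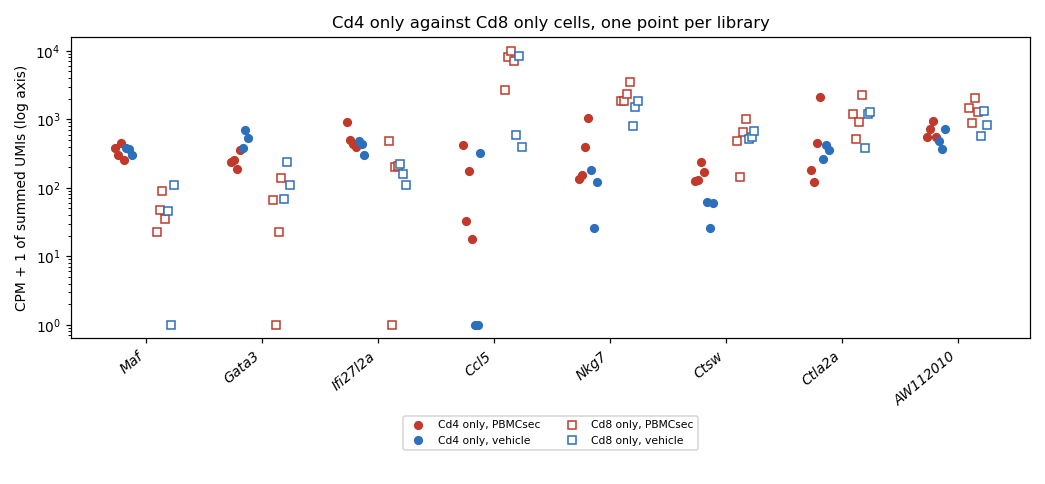
Each point is the CPM + 1 (log axis) of a gene in the summed UMIs of the Cd4 cells (filled circles) or the Cd8 cells (open squares) of a library, coloured by treatment, for the 8 genes past the threshold. Maf and Gata3 are higher in the Cd4 cells of every library and Nkg7 in the Cd8 cells of every library, while Ccl5 in the Cd8 cells spans 387 to 9976 CPM.

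Against γδ T cells, the members had more of Cd5, Cd6 and Cd28 and of 6 of the 9 MHC class I genes tested, and less of Itgae and other genes of the residency list, of Blk and of perforin. The γδ T cells were 317 cells with Trdc and at least 2 of the CD3 genes, and vehicle library 1, with 3 such cells, was left out, which left 7 libraries. Genes of the rule were not tested, but the rule selected the cells, so genes that go along with the receptor type are not independent of it. Of 2129 genes tested, 175 (8.22%) were higher and 188 (8.83%) lower in the members, and for 79 (3.71%) the libraries of the sets did not overlap.

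Cd6, a scavenger-type receptor that tunes T cell activation, had 133 CPM in the lowest, 237 in the median and 284 in the highest library of the members, and 0, 14.8 and 21.3 in the γδ T cells. Every member value lay above every γδ value (log2 fold change 4.14, SE 0.28, adjusted p = 2.05e-08 by edgeR). Its relative Cd5 had 150, 273 and 343 CPM against 0, 15.9 and 59.2 (log2 fold change 3.49, SE 0.36, edgeR adjusted p = 3.33e-06). Cd28, the main costimulatory receptor, had 259, 343 and 455 CPM against 11.9, 20.1 and 88.9 (log2 fold change 3.55, SE 0.30, edgeR adjusted p = 4.04e-07). These 3 surface receptors thus separated the sets without overlap in all 7 libraries. Without PBMCsec library 1, the log2 fold change was larger for Cd28 (4.27) and Cd5 (4.16). In the list of 16 genes of the T cell receptor complex and its signalling, 8 were higher in the members (Lck, Cd2, Cd5, Cd6, Cd28, Skap1, Ptprc and Itgb2) and 1 was lower, Cd247, the ζ chain. The call of Ptprc was lost in 8 of 14 alternative settings. The median log2 fold change of the list was 0.37, against 0.01 over all genes tested.

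Ms4a4b had 532, 783 and 941 CPM in the members and 8.99, 61.8 and 325 in the γδ T cells, again without overlap (log2 fold change 3.37, SE 0.40, edgeR adjusted p = 1.37e-05). The gene lies at chr19:11443553-11467055 on the plus strand, with Ms4a6b nearby at chr19:11516512-11531256. Ms4a6b was at 558 ± 96.8 CPM in the members and 125 ± 25.6 in the γδ T cells (SD, n = 7, log2 fold change 2.18, SE 0.15, edgeR adjusted p = 2.12e-08). Both had been named as markers of these cells beforehand, but with earlier results of these data known, so their higher level is not independent support. Higher too were the GTPases of lymphocyte survival Gimap3 (log2 fold change 3.73), Gimap4 (3.08) and Gimap6 (2.64), the phosphatase Inpp4b (3.13), the costimulatory receptor Cd27 (2.82), the cytokine Csf1 (4.05) and the interferon-induced Ifi27l2a (3.47) and Ifitm2 (2.18). Gata3 was at 295 ± 122 CPM in the members against 108 ± 23.8 (SD, n = 7, log2 fold change 1.30, edgeR adjusted p = 0.000172). Ccl5 was higher as well (log2 fold change 2.78, SE 0.60, edgeR adjusted p = 0.00401), but in only 5 of the 7 libraries, and it came to 2.12 without PBMCsec library 3 and to 1.42, no longer past the threshold, in vehicle libraries alone. Gimap3 was at 4.78 without PBMCsec library 1. Of the 10 MHC class I genes, 9 were tested and 6 were higher in the members (H2-K1, H2-D1, H2-Q7, B2m, Tap1 and Psmb9), with a median of 0.55 for the list. The call of H2-D1 was lost in 6 of 14 alternative settings. H2-K1, a classical heavy chain, had 1640, 2190 and 2678 CPM in the members and 680, 1256 and 2056 in the γδ T cells, which overlapped, although the members were higher in each of the 7 libraries (log2 fold change 0.83, edgeR adjusted p = 0.00014).

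Several genes of the residency list were lower in the members. Itgae had 114, 177 and 252 CPM in the members against 405, 556 and 703 in the γδ T cells, without overlap (log2 fold change -1.61, SE 0.16, edgeR adjusted p = 2.76e-06). In the residency list of 15 genes, 7 were tested and 6 were lower in the members, namely Itgae, the chemokine receptor Cxcr6 (log2 fold change -0.64, edgeR adjusted p = 0.0106), the regulators of G-protein signalling Rgs1 and Rgs2, the hyaluronan receptor Cd44 (-0.48, lost in 7 of 14 alternative settings) and the transcription factor Runx3. The calls of Cxcr6, Runx3 and Rgs1 were lost in 3, 2 and 1 of 14 alternative settings. The median of the tested genes was -0.72. The gene left of those tested, Cd69, an early activation and retention receptor, did not pass (log2 fold change 0.37, edgeR adjusted p = 0.433). The other 8 genes were too sparse for the test, and among them Itga1, the integrin CD49a, had a UMI in 19.6% of members (96.4 CPM over all libraries) and 3.79% of γδ T cells (13.6 CPM), the opposite direction. Cxcr6 was nevertheless found in 59.8% of the members and in 88.6% of the γδ T cells, so it was common to both. Prf1, perforin, had 0, 24.3 and 51.3 CPM in the members and 77.3, 311 and 422 in the γδ T cells (log2 fold change -3.09, SE 0.30, edgeR adjusted p = 1.45e-06). Of the 15 cytotoxic genes, 8 were tested, of which 1 was called higher in the members (Ccl5) and 2 lower (Prf1 and Klrk1). In all, 6 of the 8 had a negative log2 fold change, with a median of -0.55.

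Blk, a kinase of the Src family known from B cells and γδ T cells, was nearly absent from the members, 1 of which had a UMI of it among 353, whereas the γδ T cells had 197 CPM in the lowest, 330 in the median and 425 in the highest library (edgeR adjusted p = 5.43e-10). The receptor-type gene 5830411N06Rik was at 27.9 ± 18.9 CPM in the members and 969 ± 203 in the γδ T cells (SD, n = 7, log2 fold change -5.04, edgeR adjusted p = 5.43e-10). Its relative Cd163l1 (-4.57), the integrin activator Fermt2 (-5.23), the growth factor receptor Igf1r (-3.82), the membrane proteins Tmem176a (-3.59) and Tmem176b (-3.49), Actn2 (-3.32), Fcer1g (-2.80), Acpp (-2.41) and Cd7 (-2.40) were lower too, each in 7 of 7 libraries on the log2 scale. Without PBMCsec library 1, Fermt2 was at -7.35, and without PBMCsec library 2, Cd163l1 was at -7.04. Cd7, an immunoglobulin-type receptor, was at 175 ± 84.4 CPM in the members and 1124 ± 696 in the γδ T cells (SD, n = 7). Il7r, the receptor for interleukin 7, was lower by 0.87 on the log2 scale (log2 fold change -0.87, edgeR adjusted p = 0.0004), while Klf2 and Satb1, of the same list of naive and circulating cells, were higher, so that 2 of 4 tested genes of the list were higher and 1 lower. The call of Satb1 was lost in 5 of 12 alternative settings and that of Klf2 in 4 of 14.

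**Figure D3:**
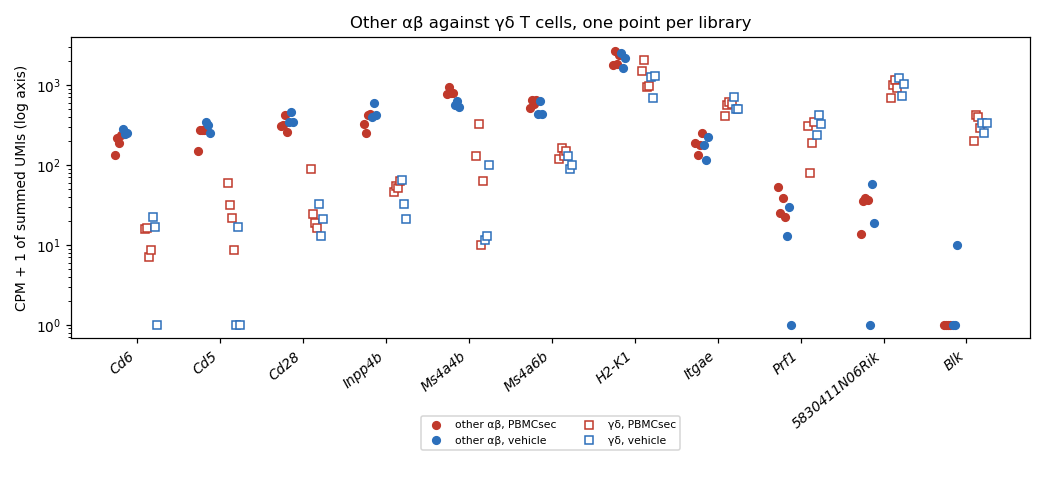
Each point is the CPM + 1 (log axis) of a gene in the summed UMIs of the other αβ T cells (filled circles) or the γδ T cells (open squares) of a library, coloured by treatment, in 7 libraries. Cd6, Cd5, Cd28, Inpp4b, Ms4a4b and Ms4a6b are higher in the members without overlap, and Itgae, Prf1, 5830411N06Rik and Blk are lower without overlap.

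Against the Ctla4 and Icos positive T cells, which are αβ T cells too, the members had more of Ccl5, Nkg7 and Ctsw, of Bcl2 and of the naive T cell factors Tcf7 and Klf2, and less of 9 of the 17 immediate early genes tested, of Hif1a, and of Gata3, Areg and Il1rl1. That set held 254 cells with at least 2 of the 6 activation genes, Foxp3 in 26.4% of them, and it had a median of 3868.5 UMIs. All 8 libraries were used. Of 2084 genes tested, 117 (5.61%) were higher and 197 (9.45%) lower in the members, and for 34 (1.63%) the libraries of the sets did not overlap. Genes that accompany the 6 activation genes, such as Il2ra and Batf, are bound to the rule, and their levels are given as a description.

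Cd7 had 105 CPM in the lowest, 143 in the median and 336 in the highest library of the members and 5.27, 11.6 and 43.6 in the Ctla4 and Icos set, without overlap (log2 fold change 2.95, SE 0.30, adjusted p = 1.3e-05 by edgeR). Cd7 was thus lower in the members than in the γδ T cells and higher than in the Ctla4 and Icos set. Nkg7 had 408, 567.5 and 1474 CPM in the members and 32.5, 261 and 388 in the other set (log2 fold change 1.59, SE 0.25, edgeR adjusted p = 0.00035). Ctsw was at 311 ± 109 against 45.4 ± 45.1 CPM (SD, n = 8, log2 fold change 2.86, edgeR adjusted p = 4.24e-05). Ccl5 was higher in 7 of 8 libraries (log2 fold change 3.29, edgeR adjusted p = 0.000271). Of 15 cytotoxic genes, 4 were tested and these 3 were higher, with a median of 2.23 for the 4 against 0.02 over all genes. Gzmb, which was too sparse for the test, had a UMI in 6.52% of members (114 CPM over all libraries) and in 15.7% of the Ctla4 and Icos set (242 CPM), the opposite direction. Cd8a, for comparison, was found in 16.7% of the members and in 2.76% of the Ctla4 and Icos set.

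Bcl2, which protects lymphocytes from apoptosis, had 80.3, 148 and 230 CPM in the members and 19.9, 39.6 and 59.5 in the Ctla4 and Icos set, without overlap (log2 fold change 1.97, SE 0.25, edgeR adjusted p = 8.87e-05). Tcf7, a factor of naive and memory T cells, was at 269 ± 122 against 93.5 ± 78.5 CPM (SD, n = 8, log2 fold change 1.59, edgeR adjusted p = 0.000245), and Klf2, which keeps T cells in circulation, was higher by 0.85 on the log2 scale (edgeR adjusted p = 0.0107, lost in 6 of 15 alternative settings). These were the 2 genes higher among 4 tested of the list of naive and circulating cells. Ccr7 of that list, the receptor that guides T cells to lymph nodes, was rare in the members, with a UMI in 11.6%. Ms4a4b had 533, 705 and 915 CPM in the members and 75.8, 216 and 342 in the other set, without overlap here as well (log2 fold change 1.76, SE 0.21, edgeR adjusted p = 4.48e-05). Ms4a6b differed by less (532 ± 108 against 352 ± 91.0 CPM, SD, n = 8, log2 fold change 0.62, edgeR adjusted p = 0.0133). Its call was lost in 2 of 15 alternative settings, with a log2 fold change of 0.41 in vehicle libraries alone. Other genes higher in 8 of 8 libraries were the adhesion molecule Jaml (log2 fold change 1.56), Rassf2 (1.499), the actin regulator Evl (1.34), Pag1, which restrains Src kinases (1.28), and Prkacb, a catalytic subunit of protein kinase A (1.24).

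Lower in the members stood Areg, a growth factor that type 2 and regulatory T cells release during tissue repair. It had 0, 9.04 and 212 CPM in the members and 54.1, 366 and 2625 in the Ctla4 and Icos set (log2 fold change -4.56, SE 0.76, edgeR adjusted p = 0.000596, and -3.60 without PBMCsec library 1). PBMCsec library 4 was the only one in which the members came near the other set, at 212 against 237 CPM. Gata3 was at 285 ± 118 CPM against 919 ± 306 (SD, n = 8, log2 fold change -1.76, edgeR adjusted p = 0.000245), and Il1rl1, the receptor for interleukin 33, fell by 2.19 on the log2 scale (edgeR adjusted p = 0.00125). Thus all 3 tested genes of the type 2 list of 9 were lower in the members than in the Ctla4 and Icos set, whereas Gata3 was higher than in the γδ T cells. In vehicle libraries alone, the calls of Gata3 (-1.32) and Il1rl1 (-1.39) were lost. Calca, which encodes calcitonin gene-related peptide, was lower as well, in 6 of 8 libraries (log2 fold change -2.43, edgeR adjusted p = 0.0102).

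Of the immediate early genes, which follow receptor signals and also tissue dissociation, 17 of 20 were tested and 9 were lower in the members (Fosl2, Junb, Nr4a1, Nr4a3, Dusp1, Dusp2, Ier3, Zfp36 and Nfkbia), with a median of -1.05. Nfkbia, the inhibitor of NF-κB, was at 631 ± 256 against 2328 ± 791 CPM (SD, n = 8, log2 fold change -1.91, edgeR adjusted p = 0.000245). In the vehicle libraries alone, the calls of Fosl2, Junb, Nr4a1, Dusp1, Zfp36 and Nfkbia were lost, with log2 fold changes of -0.51 for Fosl2 and -0.47 for Junb, against -2.08 and -1.62 in the PBMCsec libraries alone, a difference that was not tested. The call of Nr4a3 was lost in 4 of 10 alternative settings. Of the heat shock list, 0 of 11 genes passed and 2 had a lower value at an unadjusted p under 0.05. Over all genes, 311 of 2084 were lower at that unadjusted p by edgeR, so the heat shock count was not taken as a result. The part of dissociation in these values was not tested. Hif1a, the oxygen-sensing transcription factor, had 108, 167 and 211 CPM in the members against 303, 588 and 816 (log2 fold change -1.87, SE 0.19, edgeR adjusted p = 1.3e-05). Il2ra, the high-affinity chain of the interleukin 2 receptor, had 12.7, 38.1 and 80.0 CPM against 114, 271 and 596 (log2 fold change -3.03, edgeR adjusted p = 2.18e-05), and Batf, a factor of activated T cells, was at 41.0 ± 13.1 against 164 ± 82.8 CPM. Further genes lower in 8 of 8 libraries were Stx11 (-2.75), Dgat1 (-2.68), Ero1l (-2.53), Arl5a (-2.20), Ndrg1 (-1.92), Ddit4 (-1.92), Ifrd1 (-2.09), Cd81 (-1.89) and the kinase Pim1 (-1.85), of which the calls of Ndrg1 and Pim1 were lost in vehicle libraries alone.

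**Figure D4:**
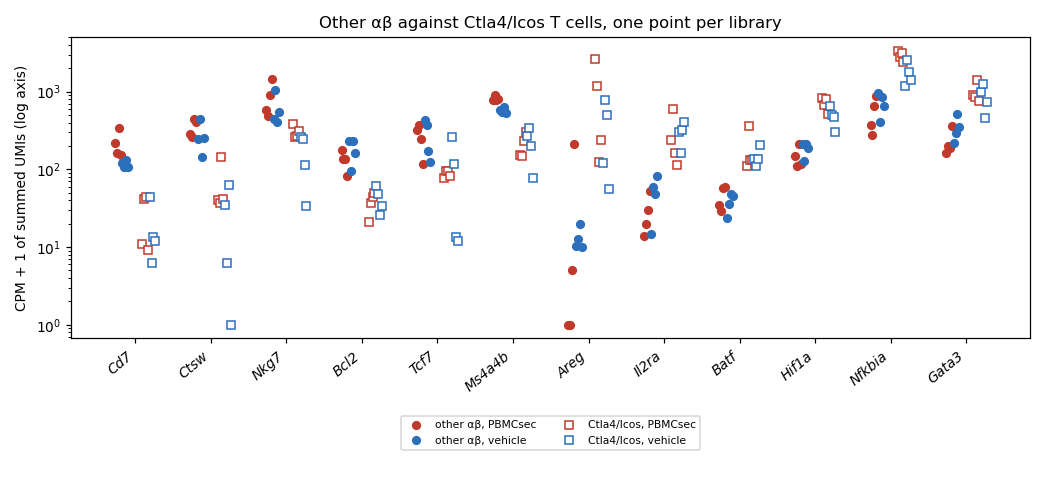
Each point is the CPM + 1 (log axis) of a gene in the summed UMIs of the other αβ T cells (filled circles) or the Ctla4 and Icos set (open squares) of a library, coloured by treatment, in 8 libraries. Cd7, Nkg7, Bcl2 and Ms4a4b are higher in the members without overlap, and Il2ra, Batf, Hif1a and Nfkbia are lower without overlap.

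Whether PBMCsec altered the transcripts of these cells was asked by comparing the summed members of 4 PBMCsec and 4 vehicle libraries. Of 2838 genes tested with edgeR, 0 (0%) passed the adjusted threshold, and 0 passed by DESeq2 (8 higher and 22 lower at an unadjusted p under 0.05) and by limma voom (41 and 43). At an unadjusted p under 0.05, 66 genes (2.33%) had a difference, 27 (0.951%) of them higher and 39 (1.37%) lower in PBMCsec, and the groups did not overlap in 42 (1.48%). Of the ways to split 8 libraries into 4 and 4, a fraction of 0.0286 leaves no overlap, so 1.48% was no excess. A p that misses the threshold with 4 libraries a group does not show that the levels were equal. Without the filter on low counts, 54 genes were called, 46 of them higher in PBMCsec, among them Klrd1, Ccl5, Gsn and Nfib, and Hspa1b on the lower side; the cause was not tested. Apart from Ms4a6b, a label marker, and Nkg7, of the cytotoxic list, the single genes fitted below are those with the smallest unadjusted p. That choice favours genes whose groups do not overlap. Each gene so chosen had an adjusted p of 0.995 by edgeR.

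Klrd1 had 125, 124, 126 and 275 CPM in PBMCsec libraries 1 to 4 and 85.6, 22.98, 47.1 and 26.8 in vehicle libraries 1 to 4. All PBMCsec values lay above all vehicle values, with PBMCsec library 4 apart from the rest (log2 fold change 1.59, SE 0.41, and 2.23 without vehicle library 1). Ccl5 had 872, 1375, 2316 and 1727 CPM in PBMCsec and 257, 0, 1459 and 223 in vehicle libraries, and vehicle library 3 lay within the PBMCsec range (log2 fold change 1.70, SE 0.67, and 3.20 without that library). The value of 0 rests on 86574 UMIs, which allow up to 34.7 CPM. Both genes were more often found in the Cd8 cells (72.3% for Ccl5, 53.9% for Klrd1) than in cells with neither coreceptor (21.0% and 16.1%). Vehicle library 2 had no Cd8 cell. Within the Cd8 cells alone, Ccl5 was at 2644, 8067, 10142 and 7039 CPM of the cells' own UMIs in PBMCsec libraries 1 to 4, from 12, 5, 15 and 8 cells, and at 560, 8496 and 398 CPM in vehicle libraries 1, 3 and 4, from 14, 6 and 5 cells. Klrd1 in Cd8 cells was at 338, 235, 268 and 1025 CPM in PBMCsec and 183, 236 and 114 in vehicle libraries 1, 3 and 4. In the cells with neither coreceptor, Klrd1 was at 183, 268, 117 and 92.5 CPM in PBMCsec libraries, from 14, 13, 37 and 17 cells. In vehicle libraries it was at 0, 0, 19.8 and 22.3 CPM there, from 5, 5, 19 and 14 cells. The part of the Cd8 share in either difference was not tested. In the cytotoxic list, all 8 genes tested had a positive log2 fold change, 3 of them at an unadjusted p under 0.05, with a median of 0.94 against 0.00 over all genes. The summed list came to 4224, 2651, 5370 and 4458 CPM in PBMCsec and 1298, 2102, 2984 and 1456 CPM in vehicle libraries, so that vehicle library 3 overlapped PBMCsec library 2.

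Ms4a4b had 763, 923, 801 and 802 CPM in PBMCsec and 577, 540, 631 and 536 in vehicle libraries. The groups were apart and narrow, 822 ± 69.6 against 571 ± 44.0 CPM (SD, n = 4 each), at a log2 fold change of 0.53 (SE 0.20). Ms4a6b had 496, 642, 583 and 650 CPM against 374, 425, 631 and 438, with overlap through vehicle library 3. Cd7 had 213, 162, 344 and 152 CPM in PBMCsec and 117, 103, 132 and 107 in vehicle libraries, again without overlap (log2 fold change 0.93, SE 0.30), but at the 5% mitochondrial limit the log2 fold change was 0.34. Positive log2 fold changes were also fitted for Pmepa1 (1.29), Cfdp1 (0.98), the interferon-induced GTPase Gbp4 (0.84), the translocon subunit Sec61g (0.59) and Nfib (2.18). Nfib was at 3.83 without vehicle library 3, and Pmepa1 was at 2.45 in libraries 1 and 2 alone and 0.47 in libraries 3 and 4 alone.

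Gsn, the actin-severing protein gelsolin, which fibroblasts express strongly, had 3019 CPM in PBMCsec library 1 and 76.1, 101 and 79.5 in PBMCsec libraries 2 to 4, against 31.6, 68.9, 75.3 and 152 in vehicle libraries. Its log2 fold change of 3.41 (SE 1.06) came down to 0.16 without PBMCsec library 1 and to 0.26 without the possible doublets. The fibroblast list moved with it, at 3807 CPM in PBMCsec library 1 and 71.4 to 395 CPM in the other libraries.

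On the lower side, the stress-induced chaperone Hspa1b had 525, 1061, 1321 and 723 CPM in PBMCsec and 2303, 2275, 1280 and 1429 in vehicle libraries, with PBMCsec library 3 just above the lowest vehicle library (log2 fold change -1.004, SE 0.28). Among members with no activation gene, of which vehicle library 2 held too few to be fitted, its log2 fold change was -0.17. Of 11 tested genes of the heat shock list, 10 had a negative log2 fold change, 3 of them at an unadjusted p under 0.05, and the median was -0.32. Immediate early genes had a negative value for 15 of 16, with 3 at an unadjusted p under 0.05 and a median of -0.35. Both lists are known to respond to tissue dissociation, and the part of dissociation in these values was not tested. Runx1, a transcription factor of T cell development, had 138, 105, 122 and 101 CPM against 203, 241, 198 and 161, without overlap (log2 fold change -0.76, SE 0.25), but in the same 7 libraries and cells with no activation gene its log2 fold change was -0.15. Rbbp7, a histone-binding subunit of chromatin complexes, had 83.4, 71.4, 92.3 and 65.0 CPM against 184.8, 103, 160 and 161, also without overlap (log2 fold change -0.98, SE 0.27). Negative values were fitted too for Arl5b (-1.38), Phlda1 (-1.19), the orphan nuclear receptor Nr4a3 (-1.17), Elf4 (-1.12), the histone deacetylase Hdac7 (-1.01), the clock gene Per1 (-0.91) and the glutathione peroxidase Gpx1 (-0.70).

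**Figure D5:**
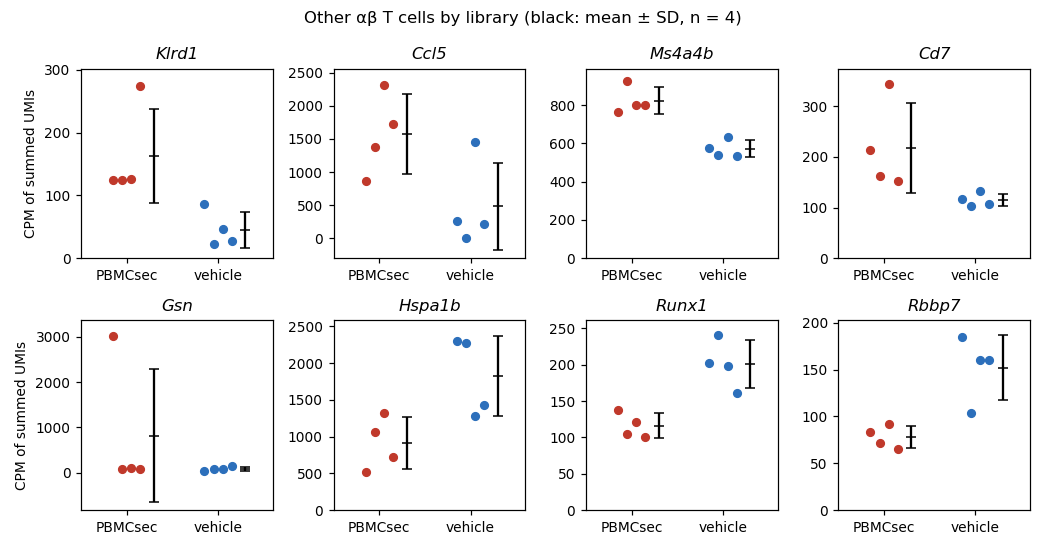
Each coloured point is the CPM of a gene in the summed UMIs of the other αβ T cells of a library, and the black marks are the mean ± SD (n = 4 per group). Klrd1, Ms4a4b and Cd7 do not overlap between the groups and are higher in PBMCsec, and Runx1 and Rbbp7 do not overlap and are lower. The genes were chosen by their small unadjusted p, which favours groups without overlap. The Gsn mean rests on PBMCsec library 1 (3019 CPM), and no gene passed the adjusted threshold.

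The remaining lists gave no difference that passed. Interferon-stimulated genes had a positive value for 8 of 9 tested (median 0.29), type 1 helper genes for 4 of 4 (0.56) and MHC class I genes for 6 of 10 (0.03). Genes of the T cell receptor complex had a negative value for 11 of 16 (-0.06), residency genes for 6 of 9 (-0.12) and naive genes for 5 of 7 (-0.06). The summed naive list ran from 910 to 2741 CPM in PBMCsec libraries and from 875 to 3836 in vehicle libraries, with vehicle library 1 at the top, and Lef1, a factor of naive T cells, was at 523 CPM in that library and at 14.5 to 267 in the others. A sum cannot tell fewer cells of a kind apart from less RNA of a gene per cell.

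Cytokines were sparse and uneven. Ifng had a UMI in 12.7% of members, in 26.2% of Cd8 and 5.10% of Cd4 cells. Il13 and Il5, cytokines of type 2 helper cells, were highest in vehicle library 2, at 172 and 218 CPM, against at most 47.1 and 84.7 in the other libraries. Il17a, Il22 and Ptgdr2 were at 0 in the 1369272 UMIs of all members, which allows up to 2.19 CPM. Gzmb was at 524 CPM in PBMCsec library 3 and 207 in vehicle library 3 and at 0 to 21.7 in the other libraries.

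Of 6 genes that had been singled out for T and B cells in earlier work on this series, most were rare in the members, with only Ccl5 abundant enough for the treatment test. Isg15, an interferon-induced modifier, had 58.4, 57.1, 29.4 and 21.7 CPM in PBMCsec and 13.5, 34.5, 18.8 and 17.9 in vehicle libraries. Ramp3, a receptor partner for calcitonin-family peptides, had 41.7, 47.6, 41.9 and 28.9 CPM against 18.0, 22.98, 28.2 and 62.5. Both overlapped. Plac8 had 25.0, 128, 41.9 and 36.1 CPM against 27.0, 0, 47.1 and 0. Calca had 4.17, 57.1, 12.6 and 50.6 CPM against 0, 0, 84.7 and 214. The haemoglobin gene Hbb-bs was at 1057 CPM in PBMCsec library 3, 238 in library 4 and between 0 and 52.3 in the others, and it marks red cells rather than T cells.

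Transcripts of other cell types were present in the members and differed between libraries. Red cell genes, 4 of 5 with a UMI and Alas2 at 0, summed to 1720 CPM in library 3 and 361 CPM in library 4 of the PBMCsec group, against 0 to 76.1 elsewhere, mostly Hbb-bs. Fibroblast genes, 7 of 7 and led by Col3a1, were at 3807 CPM in PBMCsec library 1, against 71.4 to 395 CPM elsewhere. Keratinocyte genes, 9 of 9 and led by Krt14, ran from 158 CPM in vehicle library 1 to 1714 in vehicle library 4. Macrophage and dendritic cell genes, 10 of 13 and led by H2-Ab1, were at 1429 CPM in vehicle library 4 and at 65.0 to 179 in the others, with C1qb, C1qc and Ccl22 at 0. B cell genes, 5 of 8 and led by Ighm, were at 4.19 to 184.8 CPM, with Ms4a1 and Iglc2 among those at 0. Neutrophil genes, 4 of 5 and led by S100a8, were highest in PBMCsec library 1 at 321 CPM, with Retnlg at 0.

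Lymphoid neighbours were checked in the same way. Of 10 γδ genes, 6 had a UMI (80.4 to 296 CPM per library, led by Fcer1g), and Trdv4, Trdv2-2, Tcrg-V6 and Tcrg-V5 were at 0. Natural killer genes, 5 of 7 and led by Tyrobp, summed to 4.51 to 160 CPM, with Klra8 and Klra4 at 0. Genes of group 2 innate lymphoid cells, 7 of 9 and led by Gata3, which T cells also express, were at 209 to 578 CPM in PBMCsec and 284 to 1167 in vehicle libraries, with Hs3st1 among those at 0. Genes of invariant natural killer T cells, 5 of 5, were led by Il2rb, which T cells share, and Zbtb16, the factor that defines them, was found in 5 members (1.42%), fewer than the 17.3% of the deeper keratinocyte-type cells. Mast cell and basophil genes had a UMI for 2 of 6, with Cpa3, Mcpt4, Mcpt8 and Fcer1a at 0, endothelial genes for 4 of 6, with Cdh5 and Lyve1 at 0, and smooth muscle genes for 4 of 5, with Des at 0. Their part in the comparisons between treatments was not tested.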

How the data were processed

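The 8 libraries were made with the 10x Genomics 3′ v3.1 chemistry, 1 per mouse. The authors deposited UMI counts per gene and barcode, not normalized, made with Cell Ranger 3.0.2 per the labels (the study's methods name another version) and aligned to mm10. Of 26231 barcodes, 11118 passed the filter, and 10422 had over 10% mitochondrial UMIs. Groups follow the treatment label only.

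Counts were summed per library over the members (353 cells) and over the other T cell sets, and libraries with fewer than 10 cells of a set, or 5 cells of a Cd4 or Cd8 state, were left out. Sums were compared with edgeR 4.0.16 (R 4.3.3, TMM, filterByExpr, quasi-likelihood test, Benjamini-Hochberg threshold 0.05), with the library as a block between cell sets. Rule genes were not tested. DESeq2 1.42.0 and limma 3.58.1 (voom) were alternatives, as were a 5% mitochondrial limit, thinning to 1500 UMIs per cell, no filter on low counts, no possible doublets and leaving out each library. A possible doublet had at least 2 UMIs of each of at least 2 genes of another cell type. Shares were compared by two-sided exact permutation tests (scipy 1.17.1). The scripts were tested on simulated data. There, the treatment fit recovered 33 of 100 genes changed 2-fold and 98 of 100 changed 4-fold. At 2-fold, 97 of 100 were recovered against γδ T cells and 92 of 100 against the Ctla4 and Icos set. Intervals and floors (95%, 3 counts) cover counting error only.

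Named genes are the label markers, the members of the lists, the 10 smallest unadjusted p in each direction for treatment, and the 15 largest folds in each direction with 1 sign in every library for cell sets. Genes given only as shares of cells, and values within the Cd8 cells or the cells with neither coreceptor, were added after their values were seen. The members and lists were chosen with earlier results of these data known. Gene positions come from GENCODE M21 and promoters from RefSeq. Results for some list genes are not reported here.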

Additional observations from a re-analysis of the deposited data

Results flagged for a closer look

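Of 68 groups of 4 libraries examined, 5 had a library far from the other libraries of its group by Dixon's test, and chance flags about 1 group in 20. Vehicle library 2 stood apart in the share of Cd4 cells, with 73.7% of its 19 members against 40.5% to 46.2% in the other vehicle libraries. PBMCsec library 2 stood apart in Plac8, at 128 CPM against 25.0 to 41.9 CPM. PBMCsec library 4 stood apart in Klrd1, at 275 CPM against 124 to 126 CPM in the other PBMCsec libraries, all of which were above the vehicle libraries. PBMCsec library 1 stood apart in Gsn, at 3019 CPM, together with its fibroblast transcripts. Vehicle library 4 was low in Phlda1, at 35.7 CPM against a vehicle mean of 129 ± 61.9 CPM (SD, n = 4).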

How the results depend on the processing

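Treatment differences in the share of passing cells, the share of T cells and the Cd8 share had no stable direction. The Cd4 share was lower in PBMCsec in 8 of 8 settings with a library left out and in 7 of 8 others. In libraries 3 and 4 alone, a split chosen after seeing the data, the difference was 1.12 percentage points for the share of passing cells and 3.24 for the share of T cells, and in libraries 1 and 2 alone it was -0.269 for the Cd8 share. Leaving out each library in turn gave -1.67 to 2.02 points for the share of passing cells (2.02 without vehicle library 1), -4.30 to 6.997 for the share of T cells, -11.9 to -0.341 for the Cd4 share and -3.01 (without vehicle library 2) to 8.95 for the Cd8 share. With members limited to those with no activation gene, the Cd4 share differed by 7.77 points without vehicle library 2, which then had 9 members and was under the minimum of 10, and by -4.70 points with it kept, a setting added after seeing the data, so that this library turned the direction. No share had a p under 0.05 in a setting with all 8 libraries. One of these, the exact test with libraries paired by number, cannot go below 0.125, the value it gave for the Cd4 share. Settings with 2 libraries a group cannot go below 0.333. For treatment, 54 genes were called without the filter on low counts and 1, Hbb-bs, in libraries 3 and 4 alone, while each left-out library gave 0. Gsn reversed to -0.30 in libraries 3 and 4 alone. Nkg7, at a log2 fold change of 0.52 in the main fit, reversed to -0.40 in libraries 1 and 2 alone. Against γδ T cells, the 363 calls became 174 with DESeq2, 793 without the filter, 212 at a 5% mitochondrial limit, 90 in vehicle libraries alone and 162 in thinned cells, and 262 to 398 with a library left out. PBMCsec libraries alone gave 120 higher and 169 lower. Against the Ctla4 and Icos set, the 314 calls became 189 with DESeq2, 589 without the filter, 27 in vehicle libraries alone and 132 in thinned cells, and 178 to 353 with a library left out (178 and 192 without libraries 1 and 2 of the PBMCsec group). Here, PBMCsec libraries alone gave 99 higher and 279 lower. The Cd4 and Cd8 comparison gave 107 calls without the filter, 3 at the 5% limit and 6 to 16 with a library left out (16 without PBMCsec library 2, 13 without vehicle library 3). Fewer genes were tested in the thinned cells and at the 5% limit, and single groups had fewer libraries. PBMCsec libraries alone nevertheless had more genes tested, 3257 against γδ T cells and 3286 against the Ctla4 and Icos set. The cause of the gap in calls between the treatment groups was not tested. All genes called in the comparisons with other T cell sets kept their sign in every setting in which they were tested. Treated and vehicle libraries of one number correlated in their deviations at 0.277, 0.0999, 0.0963 and 0.326, and those of unlike numbers at -0.395 to 0.206. The labels do not say what the numbers stand for, so the main fit took no pairs, and a link by number was not tested. A replicate block over the numbers left 0 calls. It gave 45 genes higher and 57 lower at an unadjusted p under 0.05 by edgeR, against 27 and 39 without it. Without the block by library, 264, 211 and 6 genes were called in the other comparisons. Depth limits the sparse genes, since vehicle library 2 had 86574 member UMIs.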
